A study of Rattus norvegicus with 20 samples.

Results

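The genes described here are receptors and signalling proteins through which the hypothalamic arcuate nucleus (ARC) reads the metabolic state of the body. They are Lepr, Insr, Igf1r, Ghsr, Glp1r, Npy1r, Npy2r and Npy5r, the receptors for leptin, insulin, insulin-like growth factor 1, ghrelin, glucagon-like peptide 1 and neuropeptide Y (NPY), and Socs3 and Stat3, which act below the leptin receptor. These 10 genes were chosen by name, out of 25926 genes or unnamed probes on the array, and are measured by 15 probes on 24 spots. Of the 10 genes, 8 passed the filter on dim probes, as did 17086 of all genes.

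RNA was taken from the ARC of 20 female Sprague-Dawley rats on postnatal day 15, with 4 rats in each of 5 conditions, and hybridized to two-colour arrays. The letters of a condition stand for the prenatal exposure, the presence of spasms and the postnatal treatment. SNS rats had mothers injected with saline, had no spasms and received saline. BNS, BYS, BYA and BYP rats had mothers injected with betamethasone, a synthetic glucocorticoid, as 2 doses of 0.4 mg/kg on gestational day 15. BNS rats had no spasms and received saline. In BYS, BYA and BYP rats spasms were triggered with N-methyl-D-aspartic acid (NMDA) on postnatal days 12, 13 and 15, and by the labels the rats were treated on days 13, 14 and 15 with saline (BYS), adrenocorticotropic hormone (ACTH; BYA) or PMX53, an antagonist of the complement receptor C5ar1 (BYP). No group had spasms without betamethasone, and the labels do not give the litter of a rat, so p-values measure the spread between these rats only. The tissue is a whole nucleus, in which fewer cells of a type and less RNA per cell cannot be told apart.

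Leptin, made by fat, binds the long form of its receptor on ARC neurons and activates the kinase Jak2, which phosphorylates the transcription factor Stat3. Stat3 then switches on Socs3, which binds the receptor and Jak2 and damps the signal. Insulin and Igf1 act through receptor tyrosine kinases and the Irs and Akt proteins, and both leptin and insulin restrain the Agrp and Npy neurons that drive feeding. Ghrelin excites the same neurons through Ghsr. NPY itself acts on G protein-coupled receptors, of which Npy1r and Npy5r lie mainly on target cells and Npy2r also on the NPY neurons, where it limits release.

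A probe is a strand of 60 bases that captures 1 transcript. The probes shown are those that decide which form of a transcript was measured, or that carry the results on Igf1r, Insr and Socs3. Capitals mark, in the Lepr probe, the 8 bases shared with the other Lepr probe on the array and, in the Npy2r and Socs3 probes, the stop codon. Positions are those of the array's annotation, build rn4.
Lepr, chr5:122503303-122503362, plus strand, from base 3500 of the transcript: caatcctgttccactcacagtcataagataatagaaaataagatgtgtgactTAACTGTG
Insr, chr12:3086616-3086675, plus strand, from base 4323: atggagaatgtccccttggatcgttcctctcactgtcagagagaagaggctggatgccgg
Igf1r, chr1:122989150-122989209, plus strand, from base 3835: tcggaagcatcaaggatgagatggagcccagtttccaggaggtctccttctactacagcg
Npy2r, chr2:150556048-150556107, plus strand, from base 1086: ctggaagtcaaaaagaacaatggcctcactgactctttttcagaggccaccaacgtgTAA
Socs3, chr10:107958636-107958695, minus strand, from base 635: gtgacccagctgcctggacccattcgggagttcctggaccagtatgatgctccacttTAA
Coding positions were read from the reading frame of the probes and not from an annotation. By its frame the printed Lepr probe lies at the end of the coding sequence of the long, signalling form, and the other Lepr probe begins within its last 8 bases and runs on past them, so both measure the same end of the transcript. The Igf1r probe is printed on 10 spots, and the SD among these spots had a median of 0.13 log2 units per sample (from 0.0686 to 0.428). The other probes lie on 1 spot each.

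Levels are given as log2 intensity after background correction and quantile normalization of the 20 channels, and differences as log2 of the first over the second condition. A level of 1 probe cannot be set against that of another. A gene was called where its adjusted p in limma, over all genes tested, was under 0.05. Each condition lies on a slide of its own (BYA on 2), and a slide cannot be told apart from its condition. The slides differ in brightness. The median ratio of spot signal to local background was 16.0 in both BNS and BYS, against 6.94 in SNS, 9.06 in BYP and 7.43 in BYA. The dissection held ARC tissue: Agrp, Npy, Pomc, Cartpt, Ghrh, Kiss1, Tac3 and Th were well above background in all 20 samples.

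Npy1r and Stat3 were the members measured above background in all 20 samples. Npy5r was well above background in 19 samples with each of its 2 probes, Igf1r in 18 and Socs3 in 15. The signals of Ghsr (14 samples), Glp1r (14 and 13 samples with its 2 probes) and Insr (12 samples with its brighter probe) lay near the limit of the array. Lepr reached it in 4 samples with one probe and 2 with the other, and Npy2r in 4 samples with each of its 2 probes. All of the samples in which a Lepr or Npy2r probe was well above background belong to BNS and BYS, the conditions with the highest ratio of signal to background.

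**Figure D1:**
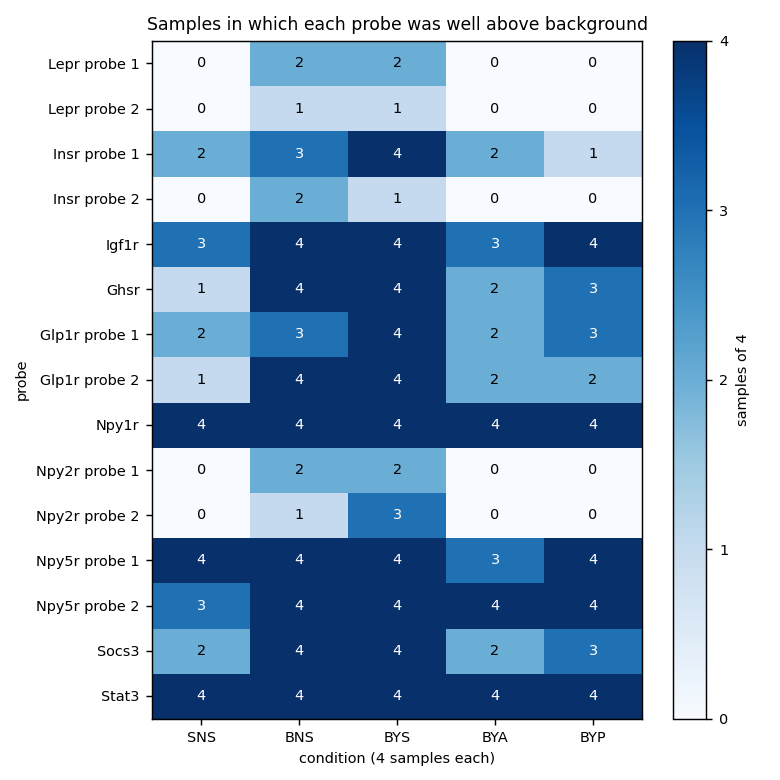
For each of the 15 probes (rows) and 5 conditions (columns), the number and shade give the samples, out of 4, in which the probe was well above background. Lepr and Npy2r show 0 in SNS, BYA and BYP, whereas Npy1r and Stat3 show 4 throughout.

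Lepr, the leptin receptor, had only a bound in SNS, BYA and BYP, where no sample was well above background. Its printed probe read 7.38, 7.36, 7.33 and 7.31 in SNS, 7.48, 7.47, 7.45 and 7.45 in BNS, 7.27, 7.46, 7.40 and 7.50 in BYS, 7.63, 7.58, 6.84 and 7.51 in BYA, and 7.66, 7.50, 7.54 and 7.52 in BYP. The other Lepr probe read 7.35, 7.40, 7.26 and 7.38 in SNS, 7.44, 7.56, 7.29 and 7.50 in BNS, 7.27, 7.59, 7.40 and 7.45 in BYS, 7.42, 7.52, 7.45 and 7.47 in BYA, and 7.39, 7.53, 7.24 and 7.55 in BYP. The 2 probes together spanned less than 1 log2 unit over all samples, and no fold is given.

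Npy2r, the receptor through which NPY neurons sense their own peptide, lay at the same limit. Its printed probe read 7.50, 7.47, 7.52 and 7.48 in SNS, 7.51, 7.48, 7.48 and 7.52 in BNS, 7.53, 7.60, 7.54 and 7.39 in BYS, 7.68, 7.54, 7.56 and 7.46 in BYA, and 7.61, 7.49, 7.45 and 7.37 in BYP. The other, from base 315 of the transcript, read 7.29, 7.39, 7.39 and 7.48 in SNS, 7.44, 7.54, 7.44 and 7.48 in BNS, 7.32, 7.51, 7.62 and 7.59 in BYS, 7.29, 7.51, 7.22 and 7.57 in BYA, and 7.52, 7.56, 7.61 and 7.45 in BYP. With no filter on dim probes, the log2 differences of the 10 comparisons ran from −0.04 to 0.15 for Lepr and from −0.03 to 0.07 for Npy2r, with 95% intervals of ± 0.154 and ± 0.119, and none passed the adjustment in limma. No rise to a level well above background was seen in SNS, BYA or BYP, while a fall, or a change below that level, was not detectable on these arrays.

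Among the 8 genes that passed the filter, 1 differed between BNS (prenatal betamethasone without spasms) and SNS. Igf1r, the receptor tyrosine kinase for insulin-like growth factors, was lower in BNS. These groups lie on different slides, so betamethasone and slide cannot be told apart. The share called over all genes in this comparison was 28.6%, so 1 of 8 members is not above it. Igf1r read 8.41, 8.40, 8.67 and 8.56 in SNS and 8.17, 8.19, 8.24 and 8.22 in BNS. Every BNS sample lay below every SNS sample, and the BNS samples spread less (SD 0.0316, n = 4) than the SNS samples (SD 0.127, n = 4). The SD among the spots of a sample was also larger in SNS (0.428, 0.241, 0.274 and 0.170) than in BNS (0.0824, 0.0686, 0.113 and 0.0895). Its part in the spread between samples was not tested. SNS replicate 1 was not well above background, so its level is a bound. The log2 difference was −0.30 (SE 0.0847, adjusted p = 0.0131, limma), or 1.23-fold lower. The groups of 32.5% of all genes did not overlap in this comparison.

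In the 3 conditions with spasms Igf1r read 8.39, 8.14, 8.35 and 8.41 (BYS), 8.17, 8.26, 8.24 and 8.26 (BYA) and 8.47, 8.36, 8.34 and 8.21 (BYP). BYA replicate 1 was not well above background, so its level is a bound. All BYA samples lay below SNS, with a log2 difference of −0.28 (SE 0.0847, adjusted p = 0.0189, limma), where 31.3% of all genes were called. For BYS over SNS the difference was −0.19 (SE 0.0847) and did not pass the adjustment (adjusted p = 0.105, limma, unadjusted p = 0.0392). These comparisons use the same SNS samples. Without the array that carried SNS replicates 3 and 4, the SNS samples with the highest Igf1r levels, the BNS difference was −0.20 (adjusted p = 0.123, limma) and the BYA difference −0.18 (adjusted p = 0.177, limma). Both differences were smaller and both calls were lost. A fit without an array has fewer rats, which by itself can lose a call. The BNS call was also lost without the array of BNS replicates 1 and 2 (−0.28, adjusted p = 0.104, limma) and the BYA call without that of BYA replicates 1 and 2 (−0.26, adjusted p = 0.0992, limma). Both were lost with the array as a random block, since 2 rats share most arrays (adjusted p = 0.0558 and 0.0595, limma), when the channels were scaled by their medians only (−0.22 and −0.28, adjusted p = 0.465 and 0.413, limma) and with the software's processed signals (−0.35 and −0.22, adjusted p = 0.125 and 0.342, limma). The BYS difference moved with the array left out, from −0.09 without SNS replicates 3 and 4 to −0.29 without SNS replicates 1 and 2, where it passed (adjusted p = 0.0397, limma). The summed level of 4 choroid plexus markers (Ttr, Folr1, Kcne2 and Otx2, of 8 listed; Kl, Clic6, Slc4a5 and F5 did not pass the filter) was higher in SNS (4629 to 8001) than in BNS (2610 to 3744) and BYA (3022 to 4298). It is a sum of linear levels, in which the brightest marker weighs most. Of the 4 markers, 0 were called in BNS over SNS (28.6% of all genes) and 1 in BYA over SNS, lower (31.3%). The part of this sum in the Igf1r results was not tested.

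Stat3, the transcription factor that carries the leptin signal to the nucleus, was highest after spasms and PMX53. It read 11.63, 11.63, 10.77 and 10.50 in SNS, 10.98, 11.34, 11.44 and 11.34 in BNS, 10.96, 10.98, 11.97 and 12.39 in BYS, 11.45, 11.46, 11.27 and 11.71 in BYA, and 11.91, 12.12, 12.34 and 12.08 in BYP. All 4 BYP samples lay above all SNS, BNS and BYA samples, and BYS held both low and high samples. The groups of 26.6% of all genes did not overlap between BYP and SNS. Stat3 rose in BYP over SNS by 0.98 (SE 0.287, adjusted p = 0.0166, limma), or 1.97-fold, where 28.9% of all genes were called and 2 of 8 members.

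Against the other betamethasone groups the Stat3 difference was 0.84 for BYP over BNS (SE 0.287, adjusted p = 0.137, limma) and 0.64 for BYP over BYA (SE 0.287, adjusted p = 0.337, limma). Both had an unadjusted p under 0.05 (0.00934 and 0.0391) and did not pass the adjustment. Over all genes, 1.5% were called for BYP over BNS and 0.158% for BYP over BYA, and 13.2% and 6.05% did not overlap between the groups. Against BYS, which received saline after spasms, the difference was 0.54, with a 95% interval from −0.06 to 1.14. Without the array of SNS replicates 3 and 4, the lowest Stat3 samples, the BYP over SNS difference was smaller, at 0.48 (adjusted p = 0.236, limma), and the call was lost. Such a fit has fewer rats, which by itself can lose a call. The call was also lost without either BYP array (0.88 and 1.08, with adjusted p = 0.0991 and 0.0514, limma), and under scaling to the median the difference was 0.52 (adjusted p = 0.177, limma). That scaling gave 0.20 for BYP over BYA. The summed choroid plexus markers were lower in BYP (2537 to 3576) than in SNS, and 1 of the 4 was called there, lower (28.9% of all genes). Their part in the BYP over SNS result was not tested.

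Socs3, the feedback inhibitor that Stat3 induces, varied most within the groups with spasms. It read 7.82, 8.17, 7.76 and 8.02 in SNS, 7.98, 8.11, 8.14 and 8.11 in BNS, 7.79, 7.85, 8.48 and 8.63 in BYS, 8.38, 8.02, 7.94 and 8.83 in BYA, and 8.02, 8.14, 9.11 and 8.75 in BYP. The SD within a group was 0.185 in SNS and 0.0734 in BNS (n = 4 each), against 0.511 in BYP, 0.430 in BYS and 0.407 in BYA (n = 4 each). These SDs were not compared with a test. Socs3 was well above background in 2 of 4 samples of SNS, 2 of 4 of BYA and 3 of 4 of BYP. The levels of the other samples of these groups are bounds. The BYP over SNS difference was 0.56 (SE 0.236, unadjusted p = 0.0287) and did not pass the adjustment (adjusted p = 0.0816, limma). This value turned on the BYP arrays. It was 0.98 and passed without the array of BYP replicates 1 and 2 (adjusted p = 0.0112, limma), and 0.14 without that of replicates 3 and 4. Without BYP replicate 1 or 2 alone it was 0.71 and passed (adjusted p = 0.0445 and 0.0440, limma), without replicate 3 it was 0.32, and with the processed signals it was 1.43 (adjusted p = 0.146, limma). With all 20 samples, no comparison called Socs3.

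**Figure D2:**
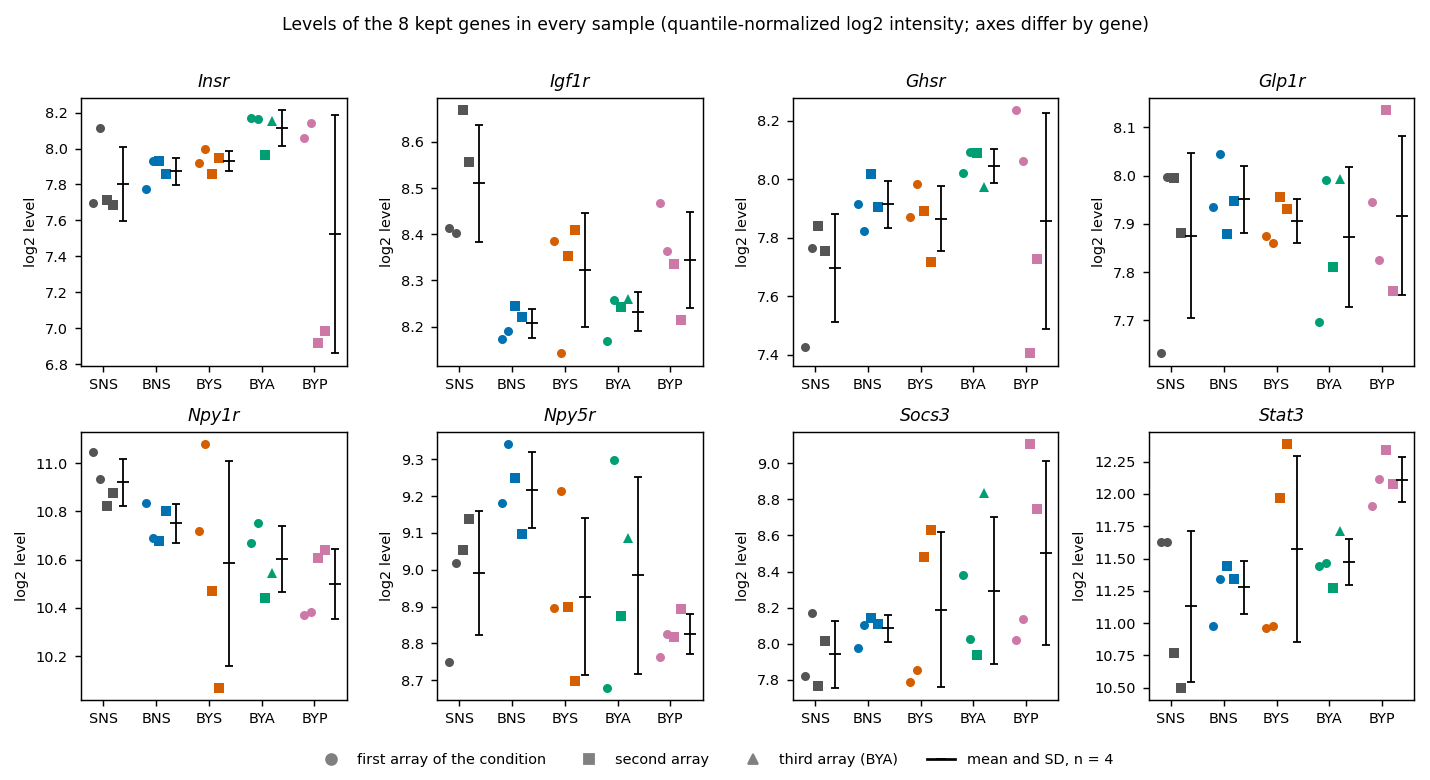
Each panel shows the log2 level of 1 gene in the 20 samples by condition, with a symbol for each array of the condition and the mean ± SD (n = 4) beside the points. The Igf1r points of BNS lie below those of SNS, the Stat3 points of BYP lie above those of SNS, BNS and BYA, and the Insr points of BYP fall into separate arrays.

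Stat3 and Socs3 levels correlated from rat to rat, though not in every condition. In BYS both were low in replicates 1 and 2 and high in replicates 3 and 4. In SNS the array means of Stat3 were 11.63 and 10.63, while those of Socs3 were 8.00 and 7.89. In BYP the array means of Socs3 were 8.08 and 8.93, while those of Stat3 were 12.01 and 12.21. Over the 20 samples, with the dye effect removed, their correlation was r = 0.72 (Spearman's rho = 0.782), and r = 0.61 after the condition means were removed. After that removal 3.26% of genes had a higher r with Socs3 than Stat3 had. Samples of 1 array share a hybridization, and over the means of the 11 arrays r was 0.73. The 3 genes most like Socs3 over the 20 samples were Timp1 (r = 0.88), an inhibitor of matrix proteases, Ier5 (r = 0.87), an immediate early gene, and Tnf (r = 0.85), an inflammatory cytokine, and their r after removal of the condition means was 0.88, 0.95 and 0.82. Those most like Stat3 were Galp (r = 0.93), a peptide of ARC neurons related to galanin, N4bp3 (r = 0.89) and Hmox1 (r = 0.89), the stress-induced haem oxygenase, with 0.93, 0.82 and 0.84 after removal of the condition means. These genes were picked for the highest r out of all genes, and the values are a description.

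The splits followed the arrays. Between 2 samples of a condition, Stat3 differed on average by 0.204 on the same array (9 pairs) and by 0.556 on other arrays (21 pairs), Socs3 by 0.174 and 0.458, and Insr by 0.0947 and 0.311. Over all genes the medians were 0.168 and 0.220, and 78.1% of genes differed more between arrays. Rats on the same array may also share a litter or a day, which the labels do not give. The summed level of 9 microglial markers, all of which passed the filter, lay between 26827 and 31138 in SNS and between 29182 and 38335 in BYP. In BNS it was lower (21258 to 25462), and BYS (26440 to 37160) and BYA (24410 to 37167) lay across this range. Over the 20 samples it correlated with Stat3 (r = 0.57) and Socs3 (r = 0.51), and its part in their levels was not tested. The markers did not move together. In BYP over SNS 3 of the 9 were called, 1 higher and 2 lower, where 28.9% of all genes were called. Their median log2 difference there was 0.03.

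**Figure D3:**
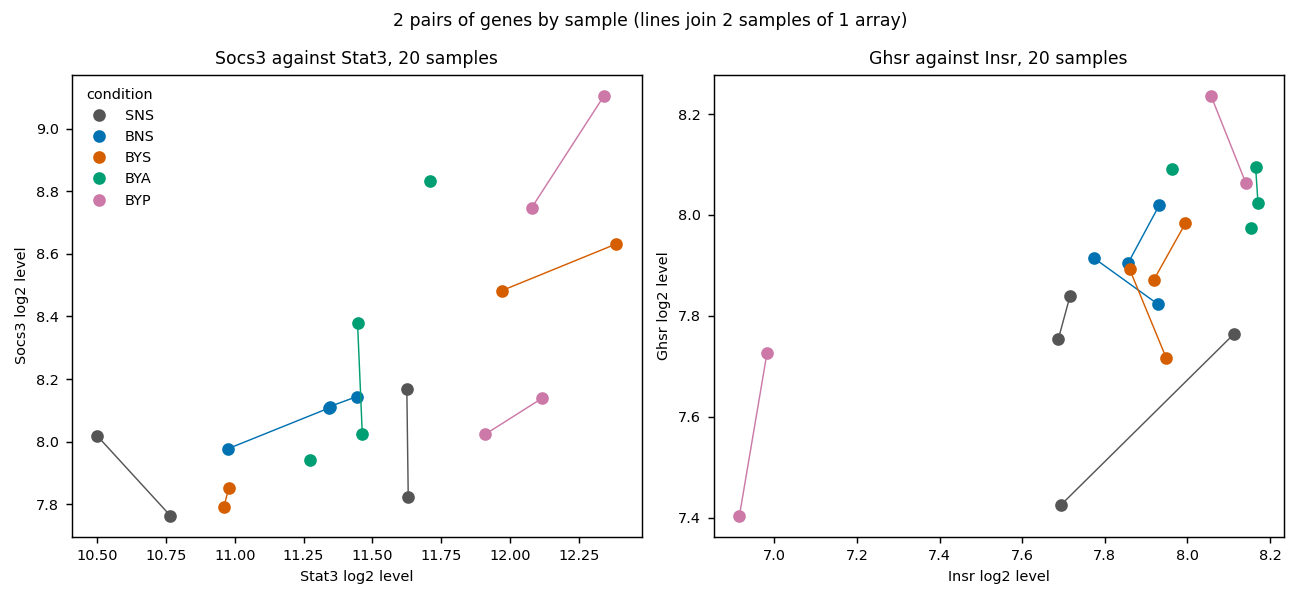
The left panel plots the log2 level of Socs3 against that of Stat3, and the right panel that of Ghsr against Insr, with a point per sample and a line between samples of the same array. Socs3 is higher where Stat3 is higher (r = 0.72), with BYP and BYS samples at the upper right, and in the right panel BYP replicates 3 and 4 lie apart at low Insr.

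Insr, the insulin receptor, did not pass the test in any comparison with all 20 samples. Its kept probe read 7.69, 8.11, 7.72 and 7.69 in SNS, 7.77, 7.93, 7.93 and 7.86 in BNS, 7.92, 8.00, 7.86 and 7.95 in BYS, 8.17, 8.16, 7.96 and 8.15 in BYA, and 8.06, 8.14, 6.92 and 6.98 in BYP. The BYP rats split by array, with replicates 3 and 4 below every other sample and replicates 1 and 2 within the range of BYA. The BYP over BYA difference was −0.59 (SE 0.210, adjusted p = 0.227, limma, unadjusted p = 0.0117). Its direction turned when the channels were scaled by their medians only (0.068), and it was −1.62 with the processed signals (adjusted p = 0.372, limma). It was −0.01 without the array of BYP replicates 3 and 4, and −1.16 without that of BYP replicates 1 and 2, where it passed (adjusted p = 1.58e-05, limma). The kept probe was well above background in 1 of 4 BYP samples, replicate 2, so the levels of the others are bounds. The other Insr probe, from base 5247 of the transcript, was well above background in 0 of 4 BYP samples and could not show a fall there. The genes most like Insr were Sema3g (r = 0.95), which encodes a semaphorin, and the unnamed probes A_64_P109672 (r = 0.94) and A_64_P297256 (r = 0.92), with r of 0.97, 0.95 and 0.93 after removal of the condition means.

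Ghsr, the ghrelin receptor, read 7.43, 7.76, 7.84 and 7.75 in SNS, 7.91, 7.82, 8.02 and 7.90 in BNS, 7.87, 7.98, 7.89 and 7.72 in BYS, 8.02, 8.09, 8.09 and 7.97 in BYA, and 8.24, 8.06, 7.40 and 7.73 in BYP. Its probe was well above background in 1 of 4 SNS, 2 of 4 BYA and 3 of 4 BYP samples. The levels of the other samples of these groups are bounds. All BYA samples lay above all SNS samples, with a log2 difference of 0.35 (SE 0.140) that did not pass the adjustment (adjusted p = 0.0652, limma, unadjusted p = 0.0225). With the processed signals it was 0.84 (adjusted p = 0.432, limma). In this comparison 26.7% of all genes did not overlap. As for Insr, BYP replicates 3 and 4 were lower than replicates 1 and 2, and over the 20 samples Ghsr correlated with Insr (r = 0.69, and 0.76 after removal of the condition means). After that removal 0.626% of genes had a higher r with Insr than Ghsr had. Most like Ghsr were the unnamed probe A_64_P163165 (r = 0.88), LOC679606 (r = 0.86) and C2cd4a (r = 0.84), with 0.85, 0.84 and 0.84 after removal of the condition means.

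Glp1r, the receptor for glucagon-like peptide 1, differed least among the conditions. It read 7.63, 8.00, 7.99 and 7.88 in SNS, 7.93, 8.05, 7.88 and 7.95 in BNS, 7.88, 7.86, 7.96 and 7.93 in BYS, 7.70, 7.99, 7.81 and 7.99 in BYA, and 7.94, 7.83, 8.14 and 7.76 in BYP. All groups overlapped, with means from 7.87 to 7.95. Its probes disagreed in sign for BNS over SNS, at −0.03 for A_44_P521396 and 0.18 for A_64_P018263. Most like it were Nr5a2 (r = 0.80), a nuclear receptor, Msn (r = 0.77), the membrane linker moesin, and AI716836 (r = 0.76), with 0.80, 0.76 and 0.88 after removal of the condition means.

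Of the NPY receptors, Npy1r was lower after spasms and PMX53 than in SNS. It read 11.05, 10.94, 10.82 and 10.88 in SNS, 10.83, 10.69, 10.68 and 10.80 in BNS, 10.72, 11.08, 10.47 and 10.07 in BYS, 10.67, 10.75, 10.44 and 10.55 in BYA, and 10.37, 10.38, 10.61 and 10.64 in BYP. BYP and BYA samples all lay below SNS, BYP samples also all lay below BNS, and BYS spread over the whole range. Npy1r fell in BYP against SNS by 0.42 on the log2 scale (SE 0.152, adjusted p = 0.0456, limma), or 1.34-fold. For BYS over SNS the difference was −0.34 (SE 0.152, adjusted p = 0.108, limma, unadjusted p = 0.0406). It depended on the BYS array kept, at −0.02 without the array of BYS replicates 3 and 4 and −0.65 without that of replicates 1 and 2, where it passed (adjusted p = 0.00371, limma). Leaving out 1 rat moved it between −0.51, without BYS replicate 2, where it passed (adjusted p = 0.0107, limma), and −0.15, without BYS replicate 4. The BYP call lies close to the threshold. It was lost without any 1 of the SNS or BYP arrays (−0.54 to −0.30, adjusted p from 0.0528 to 0.281, limma), and in 7 of 8 fits that left out 1 rat (adjusted p up to 0.111, limma). It was also lost with the array as a random block (adjusted p = 0.110, limma) and with the processed signals (adjusted p = 0.138, limma), and scaling to the median gave −0.81 (adjusted p = 0.0335, limma). The summed choroid plexus markers separate SNS from BYP here too, though only 1 of the 4 was called. Their sum had r = 0.44 with Npy1r over the 20 samples, and its part in this result was not tested.

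Npy5r, the other NPY receptor linked to feeding, read 8.75, 9.02, 9.05 and 9.14 in SNS, 9.18, 9.34, 9.25 and 9.10 in BNS, 8.89, 9.21, 8.90 and 8.70 in BYS, 8.68, 9.30, 8.88 and 9.09 in BYA, and 8.76, 8.83, 8.82 and 8.89 in BYP. All BYP samples lay below all BNS samples, and the difference of −0.39 (SE 0.118) did not pass the adjustment (adjusted p = 0.0925, limma, unadjusted p = 0.00382). With the processed signals it was −0.82 and passed (adjusted p = 0.0358, limma). It was −0.53 with one probe, A_64_P134719, and −0.26 with the other, A_43_P11594. For BYS over BNS it was −0.29 (SE 0.118, adjusted p = 0.629, limma, unadjusted p = 0.0242), in a comparison that called 0.0293% of all genes. With the processed signals it was −0.59, without BYS replicate 4 −0.18, and without the array of BYS replicates 3 and 4 −0.16.

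Npy1r and Npy5r lie close together on rat chromosome 16, and over the 20 samples their levels correlated with r = 0.50 (0.48 after removal of the condition means). After that removal 6.71% of genes had a higher r with Npy1r than Npy5r had. Both correlated negatively with Stat3, with r = −0.65 for Npy1r and −0.62 for Npy5r, and −0.48 and −0.54 after removal of the condition means. Among the genes most like Npy1r were Zfand1 (r = 0.83) and Zfp867 (r = 0.82), with 0.76 and 0.78 after removal of the condition means. Most like Npy5r were Rps6ka6 (r = 0.85), a ribosomal S6 kinase, Thyn1 (r = 0.84) and Gemin8 (r = 0.84), with 0.80, 0.77 and 0.71. Most like Igf1r were Eftud2 (r = 0.91), a splicing factor, Oxt (r = 0.88), the oxytocin precursor, and Cabin1 (r = 0.88), with 0.80, 0.83 and 0.78.

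Within the betamethasone groups no member passed the test. Spasms (BYS over BNS), ACTH after spasms (BYA over BYS) and PMX53 after spasms (BYP over BYS) called 0 of 8 members each, and 0.0293%, 0% and 0.0351% of all genes. At an unadjusted p under 0.05 they held 1, 0 and 0 members, against 6.92%, 8.07% and 8.5% of all genes. The groups overlapped for all 8 members in these comparisons, while 6.43%, 4.11% and 4.71% of all genes did not overlap. The 95% intervals bound what could have been missed. For BYA over BYS they ran from −0.27 to 0.09 for Igf1r, −0.30 to 0.34 for Npy1r, −0.11 to 0.47 for Ghsr, −0.26 to 0.62 for Insr, −0.39 to 0.60 for Socs3 and −0.70 to 0.50 for Stat3. For BYP over BYS they ran from −0.16 to 0.20 for Igf1r, −0.40 to 0.23 for Npy1r, −0.35 to 0.15 for Npy5r, −0.85 to 0.03 for Insr and −0.18 to 0.81 for Socs3. For Stat3 the upper end was 1.14, as given above. BYA over BNS, BYP over BNS and BYP over BYA called 0 of 8 members as well in limma, with 0.117%, 1.5% and 0.158% of all genes called. At an unadjusted p under 0.05 they held 0, 2 and 2 members, against 13.1%, 17.8% and 13.6% of all genes. The groups did not overlap for 1 of 8 members between BYA and BNS (Insr, higher in BYA; 8.65% of all genes), 3 between BYP and BNS (Stat3, higher in BYP, and Npy1r and Npy5r, lower; 13.2%) and 1 between BYP and BYA (Stat3, higher in BYP; 6.05%).

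The shares of all genes called within the betamethasone groups turned on single rats, while no member was called in any of the 6 comparisons when 1 rat was left out. Without BYA replicate 3, the sample whose dye label and data name disagree, the share was 1% for BYA over BNS, 1.55% for BYP over BYA and 0.152% for BYA over BYS. For BYP over BNS it lay between 0.421% and 0.579% without any 1 BNS rat or BYP replicate 2. Over the other rats it ran from 0.00585% to 0.0761% for BYA over BNS, from 0% to 0.24% for BYP over BYA, from 0% to 0.0234% for BYA over BYS, from 0% to 0.0644% for BYS over BNS and from 0.0234% to 0.205% for BYP over BYS.

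Against SNS, 1, 2, 2 and 3 of the 8 members had an unadjusted p under 0.05 in BNS, BYS, BYA and BYP, where 41.4%, 40.2%, 42.4% and 41.5% of all genes had one. BYS over SNS called 0 of 8 members in limma (27.1% of all genes).

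An F-test over the 5 conditions called none of the 8 members (30.3% of all genes), with 3 at an unadjusted p under 0.05 (44.8% of all genes). Igf1r came closest (adjusted p = 0.0536, limma), followed by Stat3 (0.0778) and Npy5r (0.108).

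**Figure D4:**
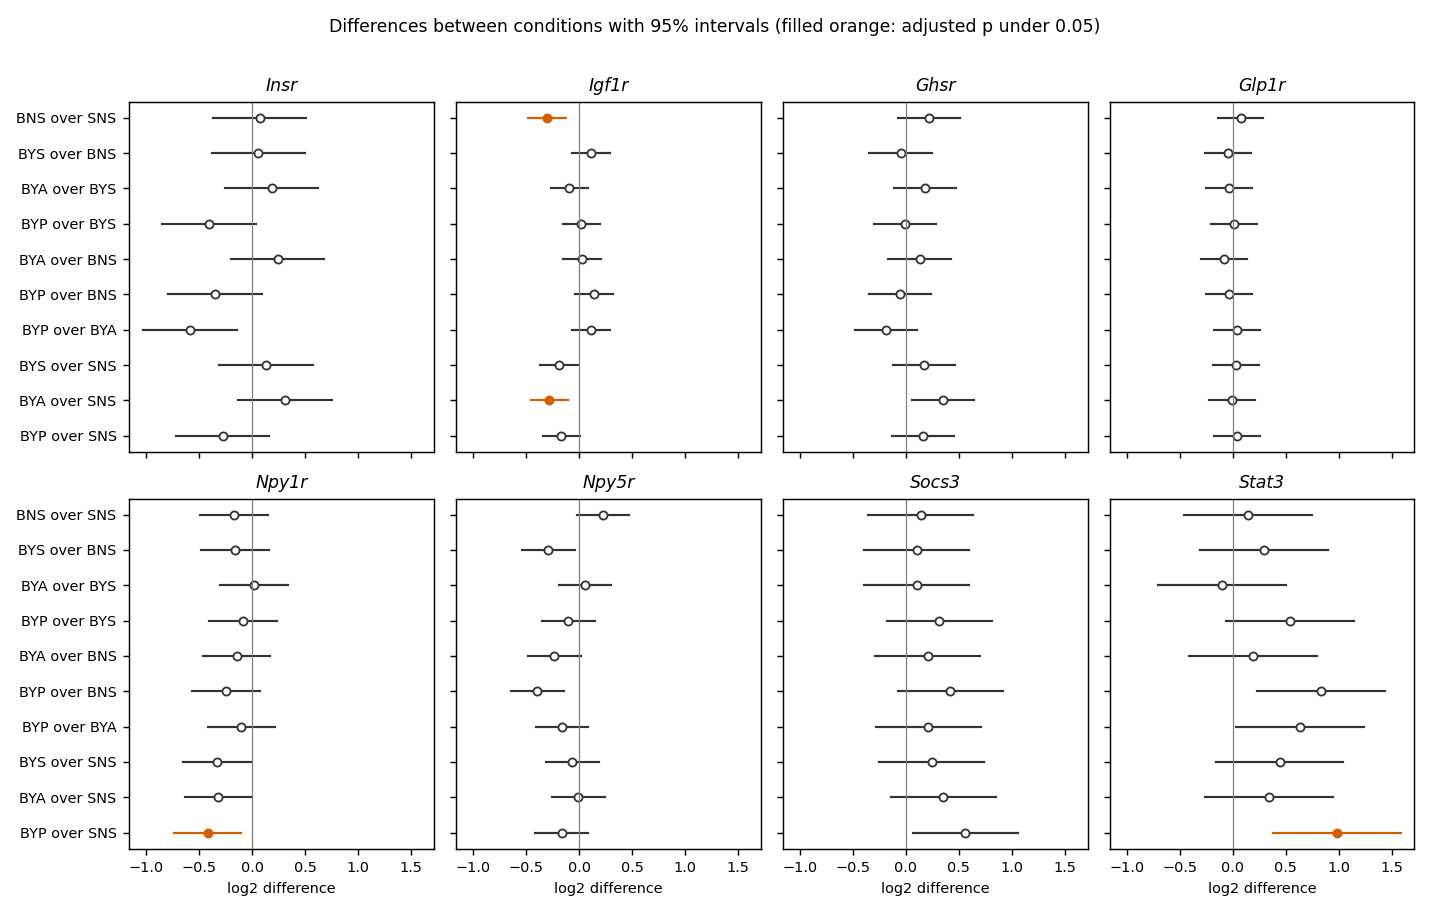
For each gene, points give the log2 difference of the 10 comparisons and lines its 95% interval, with called differences filled in orange. The called differences are Igf1r in BNS and BYA over SNS, and Npy1r and Stat3 in BYP over SNS, and the intervals of Stat3, Socs3 and Insr are wider than those of Igf1r and Glp1r.

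The rest of the pathways was read from 5 lists of 121 genes, of which 102 passed the filter. Against SNS they held 18 called genes in BNS (12 higher, 6 lower), 18 in BYS (12 higher, 6 lower), 26 in BYA (18 higher, 8 lower) and 22 in BYP (17 higher, 5 lower). These are 17.6%, 17.6%, 25.5% and 21.6% of the genes tested, below the 28.6%, 27.1%, 31.3% and 28.9% of all genes. Between the betamethasone groups none of the 102 genes was called in any of the 6 comparisons, where 0% to 1.5% of all genes were. From 2 to 14 of the 102 had an unadjusted p under 0.05, against 6.92% to 17.8% of all genes.

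**Figure D5:**
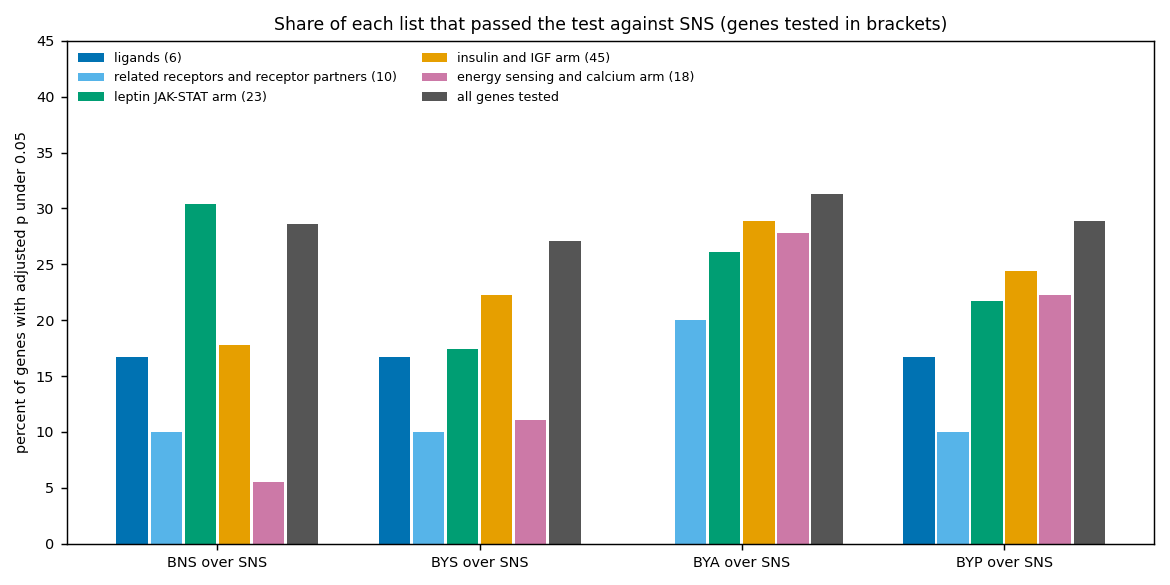
Bars give the percent of the genes of each list, and of all genes tested, with an adjusted p under 0.05 in the 4 comparisons with SNS. The bars of the lists lie below that of all genes, except the leptin list in BNS over SNS (30.4% against 28.6%).

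In the leptin list, with 23 genes tested, 7 were called in BNS over SNS (3 higher, 4 lower) with a median log2 difference of −0.14, against −0.04 over all genes. Socs5, of the same family of inhibitors as Socs3, read 10.67, 10.81, 11.05 and 10.95 in SNS and 12.02, 11.99, 11.69 and 12.00 in BNS. Every BNS sample lay above every SNS sample, and Socs5 rose by 1.06 (SE 0.126, adjusted p = 9.58e-06, limma). It was also higher in BYS (1.13), BYA (1.02) and BYP (1.17) over the same SNS samples. Pias4, which restrains Stat proteins, fell by 0.41 (SE 0.0854, adjusted p = 0.00174, limma), from 10.91, 11.18, 10.84 and 10.96 in SNS to 10.54, 10.64, 10.52 and 10.52 in BNS. Sh2b1, an adaptor that enhances leptin signalling, fell by 0.53 (SE 0.143, adjusted p = 0.011, limma), from 10.21, 10.26, 10.16 and 9.98 to 9.79, 9.66, 9.54 and 9.51. Ptpn1, a phosphatase that dephosphorylates Jak2 and the insulin receptor, was named after its values were seen. It read 10.99, 10.92, 11.60 and 11.27 in SNS and 11.99, 11.93, 12.73 and 12.06 in BYP. It rose by 0.98 in BYP over SNS (SE 0.205, adjusted p = 0.00193, limma).

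In the insulin and IGF list, with 45 genes tested, 8 were called in BNS over SNS (7 higher, 1 lower), with a median of 0.00. Pdpk1, the kinase that activates Akt, read 12.19, 12.09, 11.89 and 12.09 in BNS and 11.26 and 11.12 in SNS replicates 1 and 2, with no value in the other SNS samples, whose spots were marked as outliers. It rose by 0.88 (SE 0.179, adjusted p = 0.00203, limma). Irs2, the docking protein of both receptors, Akt2, Igfbp3 and Igfbp7 were named after their values were seen. Irs2 ranged from 11.15 to 11.51 in SNS and read 11.77, 11.78, 11.68 and 11.92 in BNS, and 12.39, 12.38, 12.20 and 12.22 in BYP. It rose by 0.42 in BNS (adjusted p = 0.0489, limma) and by 0.93 in BYP (adjusted p = 0.000254, limma). Akt2 rose by 0.42 in BNS over SNS, and the binding proteins Igfbp3 and Igfbp7, of which the former carries insulin-like growth factors, by 0.65 and 0.85 (adjusted p = 0.00989, 0.0177 and 0.00111, limma). Akt2 read 7.62, 7.75, 7.39 and 7.45 in SNS and 8.02, 8.05, 8.07 and 7.76 in BNS. Igfbp3 read 10.22, 10.16, 11.09 and 10.79 in SNS and 11.46, 11.06, 11.13 and 11.21 in BNS, and the groups overlapped. Igfbp7 read 7.58, 7.63, 8.46 and 8.24 in SNS and 8.76, 8.67, 8.99 and 8.87 in BNS. Both binding proteins were higher on the array of SNS replicates 3 and 4 than on that of replicates 1 and 2.

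Of 6 ligand genes tested, Igf2 rose in BNS over SNS by 1.28 (SE 0.396, adjusted p = 0.0222, limma). It read 11.86, 10.99, 11.84 and 12.54 in SNS and 13.87, 11.91, 12.96 and 13.62 in BNS, and the groups overlapped. Npy, named for this comparison after its values were seen, fell in BYS against SNS by 0.75 (SE 0.271, adjusted p = 0.0485, limma). It read 14.80, 15.11, 15.60 and 15.25 in SNS and 14.22, 14.65, 14.17 and 14.73 in BYS. The genes for leptin, ghrelin and proglucagon (Lep, Ghrl and Gcg) were on the array and did not pass the filter. Of the related receptors, 1 of 10 was called in BNS over SNS: Gipr, the receptor for the gut peptide GIP and named after its values were seen, rose by 0.58 (adjusted p = 6.86e-05, limma). It read 7.82, 8.11, 7.80 and 8.02 in SNS and 8.56, 8.48, 8.55 and 8.46 in BNS. Of the energy-sensing list, 1 of 18 was called: Cpt1c, a carnitine palmitoyltransferase of neurons, fell by 0.64 (SE 0.220, adjusted p = 0.0376, limma), with overlapping groups of 11.44, 10.90, 11.46 and 11.94 in SNS and 11.09, 11.32, 10.30 and 10.47 in BNS.

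The promoters of the members were searched for the binding motif of Stat proteins, TTCNNNGAA, which reads the same on both strands. None of the 10 members had these letters in a window of 250 bases before to 50 after the gene start (RefSeq, build GRCr8), against 8.87% of 33469 windows. At that share a count of 0 in 10 genes tells little, and sequence outside the windows was not searched.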

How the data were processed

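Files of 11 two-colour arrays on 6 slides were used. The authors deposited mean spot and local background intensities without normalization, and processed intensities that per the file headers the software background-subtracted and dye-normalized. Flags for spots above background, outliers and saturation were also deposited, with values of 0 or 1 (score). Cy3 and Cy5 channels hold different rats, so each channel was 1 sample. On 2 arrays the other channel holds a male rat of another series, and its 82 columns were not used. For BYA replicate 3 the dye label and the order in the data name disagree, so it is not certain which rat its channel holds. The label was used. The submitters' processing notes name Feature Extraction 10.7.3.1 and the headers 11.5.1.1.

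Background was corrected with limma's normexp (offset 50), followed by quantile normalization of all 20 channels and log2 transformation. Outlier spots (1.18%) were dropped and the spots of each probe averaged. The filter retained probes with a share of 0.5 or more of their spots flagged well above background in every sample of at least 1 condition, and retained probes of a gene were averaged. Of 30367 probes, 61.4% matched a RefSeq symbol by accession. The model held condition and dye over all 20 samples, with Benjamini-Hochberg adjustment over all genes. R 4.3.3 and limma 3.58.1 were used. On simulated data of 16299 genes, BNS against SNS, 82% of genes changed by 1 log2 unit were called. Of those changed by 0.5 and 0.3, 36% and 12% were called. The simulation changed 50 genes at each size and gave the rats of an array nothing in common, so these shares need not hold for the data.

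The members, the gene lists and the tests were chosen with earlier results of these data known. All 10 members were named with their values. Up to 3 genes with the highest and 3 with the lowest change among the called pathway genes were named for 6 comparisons, and other genes are said to have been named after their values were seen.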

Additional observations from a re-analysis of the deposited data

Results flagged for a closer look

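In 3 of 60 sets of 4 samples, 1 sample lay far from the others by Dixon's ratio (its gap to the nearest sample over the range of the set, against the critical value for 4 samples), and chance alone gives about 1 in 20. Insr in SNS had a ratio of 0.933, with replicate 2 at 8.11 and the next at 7.72. In BYA, Insr had a ratio of 0.923, with replicate 3 at 7.96 and the next at 8.15. The Lepr probe A_64_P082049 in BYA had a ratio of 0.851, with replicate 3 at 6.84 and the next at 7.51. This probe was not flagged well above background in any BYA sample. BYA replicate 3 is the sample whose dye label and data name disagree, and it lies alone on its slide.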

How the results depend on the processing

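Of the 13 member differences printed with a test, none changed sign under any alternative except Insr for BYP over BYA, which was 0.068 after scaling to the median. That scaling moved the median over all genes for BYP over BYA from 0.00 to −0.13. The cause of the changes below was not tested. The numbers of members called, of 8 unless stated, changed as follows, with the share of all genes called in brackets. After median scaling they were 0 for BNS (15.5%), 0 for BYA (8.2%) and 1 for BYP over SNS (28.7%). For BYP over BYS there were 2 (Ghsr and Glp1r, 16.5%). With the software's processed signals they were 0 for BNS (13.7%) and 0 for BYA over SNS (11.4%). Npy5r was the 1 called for BYP over BNS (1.72%) and the 1 in the F-test (14.3%). Without background correction they were 2 for BNS over SNS (29.3%) and 1 in the F-test (31.5%). With loess and Aquantile on 9 arrays they were 0 for BYA (27.1%) and 1 for BYP over SNS (31%). Without a filter, with 10 members tested, they were 1 for BYP over SNS (22.4%) and 1 in the F-test (Igf1r, 25.4%). With probes well above background in all 20 samples, 2 members were left (Npy1r and Stat3). Of these, 0 were called for BNS (29.1%) and for BYA over SNS (32.5%). With the array as a random block (correlation 0.365) they were 0 for BNS, 0 for BYA and 1 for BYP over SNS (Stat3), and 13.9% to 19.4% of all genes were called in the comparisons with SNS. With the slide as a random block they were 2 for BNS (47.7%), 2 for BYS (46%), 3 for BYA (45.6%) and 4 for BYP over SNS (47.6%). That block also gave 2 for BYP over BNS (15.5%), 1 for BYP over BYA (Insr, 6%) and 5 in the F-test (61.5%). But the estimated correlation of the slide was negative (−0.128), which narrows the errors. With only the 8 samples compared they were 1 for BYP over BNS (Stat3, 1.01%) and 0 for BYA over SNS (17.7%). The methods' t-test after Benjamini-Hochberg adjustment gave 0 for BNS (14.8%), BYA (7.17%) and BYP over SNS (8.04%). At an unadjusted p under 0.05 the t-test gave 2 for BNS (35.6%) and 4 for BYA over SNS (29.4%). It also gave 2 for BYA over BYS (4.99%) and 2 for BYA over BNS (10.3%). For BYP over BNS it gave 3 (14.9%) and for BYP over BYA 1 (6.91%). Without 1 rat at a time the counts ran from 0 to 1 for BYS over SNS (18.7% to 26%) and 0 to 1 for BYA over SNS (24.9% to 31.5%). They ran from 0 to 2 for BYP over SNS (24% to 26.5%) and 0 to 3 in the F-test (22.3% to 32.5%). In the F-test 3 were called without BYS replicate 2 (29.6%). The replicate numbers did not pair the rats (mean correlation 0.0031 for the same number). With the replicate block 1 member was called for BNS over SNS (29.8%), as without it, and 2 for BYP over SNS (30.3%). The arrays left out were chosen after seeing the data. Lepr, Npy2r, Insr, Ghsr and Glp1r lay near the background, as did Socs3 in some samples of SNS, BYA and BYP, which limits what could be seen of them.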
